A study of Rattus norvegicus with 46 samples.

Results

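The sham-operated hearts of the aortic banding model form a time series of their own, in rats that were operated on but carried no clip. They were chosen by the samples' labels alone, as the arrays marked sham operated in the banding experiment, and number 8 of the 46 arrays. The rats were male Wistar rats. Banding narrows the ascending aorta with a clip; the shams were operated on without one, and their hearts were taken 6, 12, 16 or 30 weeks later. Each array (Affymetrix RGU34A, a rat expression array) was hybridised with a pool of left ventricular RNA from several animals, and each time point has 2 pools. The 2 pools at 6 weeks and the 2 at 12 weeks are called early, and the 2 at 16 and the 2 at 30 weeks are called late. For comparison, banded rats had the clip and were sampled at the same time points on 10 arrays. More of the late banded arrays are from 30 than from 16 weeks, so the banded late mean leans towards 30 weeks. Shams of the infarction model (3 and 9 weeks) and of the aortocaval shunt model (3 and 8 weeks) gave another 8 arrays. Neonatal left ventricle gave 2 arrays, which were compared with those 8 and with 2 arrays of rats infused with saline for 2 weeks, 10 adult controls in all. Age and time since the operation advance together and cannot be told apart, nor can either be told apart from any difference in handling between the time points.

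The growing left ventricle goes through a long period of maturation after birth. Fibroblasts lay down fibrillar collagens while the heart enlarges and slow down once the organ reaches its adult size. The cardiac myocyte moves from glucose to fatty acids as its main fuel, fills with mitochondria, and in the rat replaces beta by alpha myosin. Ageing hearts are known for fibrosis, for altered chaperone and stress responses and for a partial return of fetal genes.

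Levels are log2 intensities after raising all values to at least 16, and a difference is late minus early on that scale, ± SE from limma. No probe set passed. Of 8740 probe sets, 0 had a Benjamini-Hochberg adjusted p below 0.05 (0%), and the smallest adjusted p was 0.993. At an unadjusted p below 0.05 there were 310 probe sets (3.55%), 193 higher (2.21%) and 117 lower (1.34%) in late hearts. The 4 late arrays lay entirely above the 4 early ones in 106 probe sets (1.21%) and entirely below in 77 (0.881%). A fit that takes the spread from all 20 groups of the series called 1 (0.0114%), a probe set of the angiotensin receptor gene Agtr1b at 0.63, whose other 3 probe sets were at 0.33, 0.18 and 0.03; it was named after its value was seen. Differences were small, with 99.1% of probe sets under 0.5 log2 in size and a 95% interval that reached a median of 0.268 log2 to each side. For 98.5% of probe sets the whole 95% interval lay within 1 log2 of 0, so that a difference of more than 2-fold between early and late pools was outside it. The linear trend over the 24 weeks between the first and last time point called 0 (341 probe sets, 3.9%, at an unadjusted p below 0.05), and so did the test for any difference between the 4 time points (342, 3.91%).

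**Figure D1:**
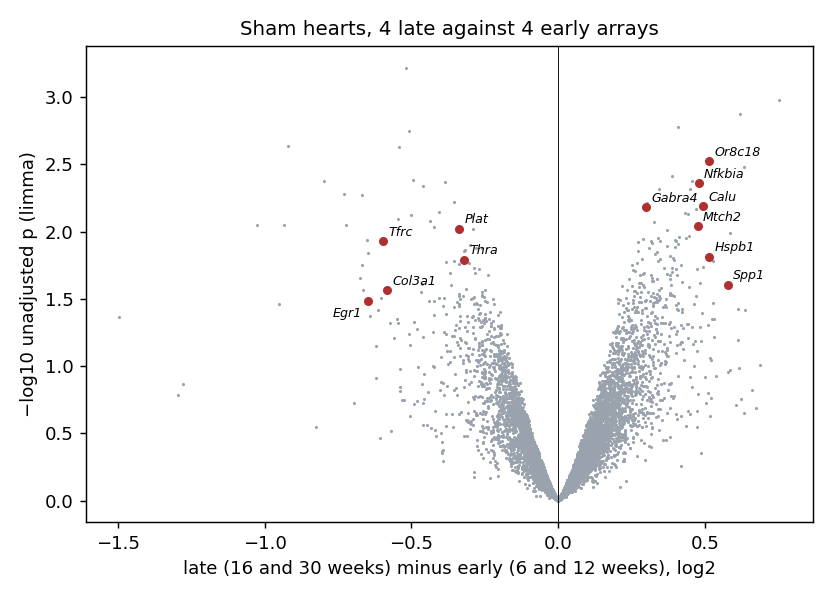
Each grey point is 1 of 8740 probe sets on the sham arrays, with the late minus early difference (log2) on the horizontal axis and the −log10 of the unadjusted limma p on the vertical axis; red points are 12 genes named on the plot. These 12 lie within 1 log2 of 0, and none passed after adjustment.

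The 8 arrays were not equally even. The correlation of log2 values between 2 sham arrays ran from 0.965, between the 2 pools at 12 weeks, to 0.992. The median absolute difference between the 2 pools of a time point was 0.161 log2 at 6 weeks, 0.263 at 12 weeks, 0.128 at 16 weeks and 0.145 at 30 weeks. The very bright end of the scale also differed, the highest intensity being 27718 in 1 pool at 6 weeks and 64867 in the other. Quantile normalization, which gives all arrays the same distribution, moved the median difference over all probe sets from 0.02 to -0.00482.

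Collagens stood furthest below 0 among the functional lists. Col3a1, the chain of type III collagen that is made in quantity by growing and injured tissue, was at 13.07 and 12.72 in the 2 pools at 6 weeks, 11.90 and 12.08 at 12 weeks, 11.94 and 12.03 at 16 weeks, and 11.67 and 11.81 at 30 weeks. Both pools at 6 weeks lay above the other 6, and 1 pool at 12 weeks lay below 2 of the late pools, so that early and late overlap. The early mean was 12.44 (SD 0.55, n = 4) and the late mean 11.86 (SD 0.16, n = 4), a difference of -0.58 ± 0.23 (limma adjusted p = 0.993, exact two-sided permutation p = 0.0857, the smallest such a test of 4 against 4 can give being 0.0286). Between 6 and 12 weeks alone the difference was -0.90 ± 0.16. Along the straight line from 6 to 30 weeks Col3a1 was at -0.97 ± 0.26 (limma adjusted p = 0.995). In the test for any difference between the 4 time points it had the smallest p of 4736 genes (limma adjusted p = 0.803). The other Col3a1 probe set was at -0.45 late minus early.

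Other surgical series showed Col3a1 highest at their first time point too. In banded hearts its mean was 13.39 at 6 weeks, 12.45 at 12, 12.52 at 16 and 12.44 at 30 weeks, each above the sham mean of that time. In infarction shams it was 12.81 and 12.78 at 3 weeks and 12.01 and 11.90 at 9 weeks. In shunt shams it was 12.92 and 12.54 at 3 weeks and 12.19 and 12.49 at 8 weeks. The earlier and later pools did not overlap in either of these models, and the later minus earlier difference over both was -0.62 ± 0.11 (limma adjusted p = 0.228). The late minus early difference in banded hearts was -0.45, above the sham one by 0.13 with a 95% interval from -0.59 to 0.86. Neonatal ventricle had 14.13 and 13.78, above all 8 banding shams, and stood 1.37 ± 0.29 log2 above the 10 adult control arrays outside the banding model (limma adjusted p = 0.00233). That comparison called 3090 of 8740 probe sets (35.4%), so a call in it is common.

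**Figure D2:**
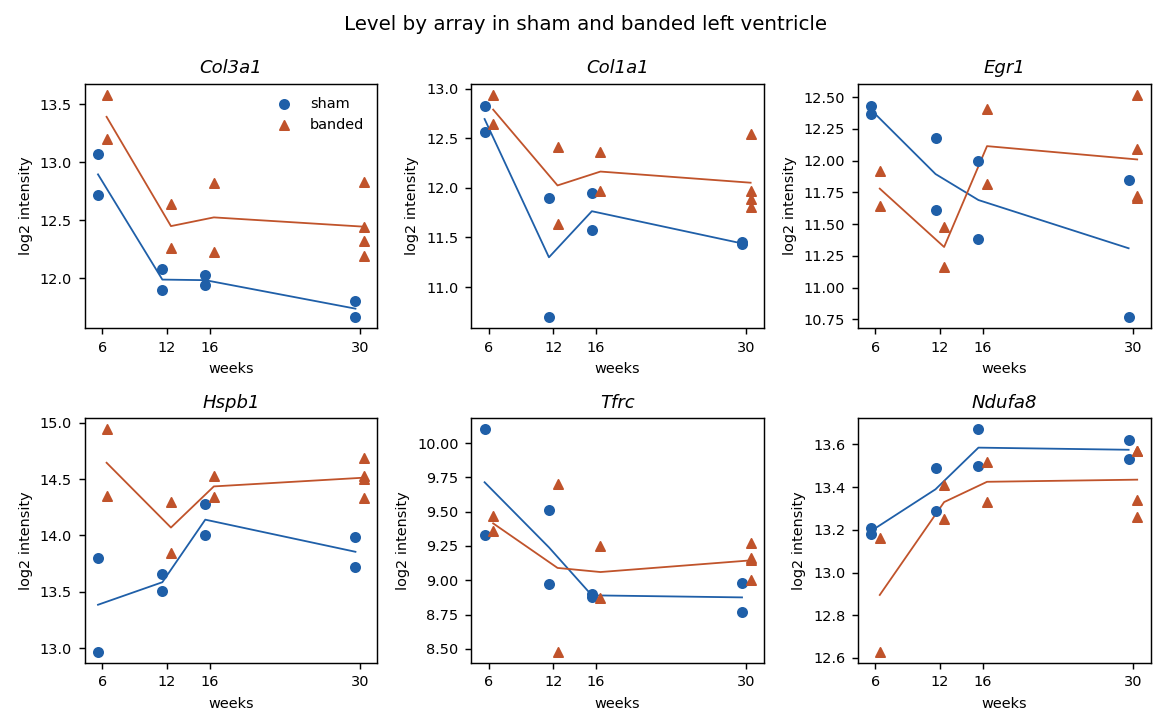
Log2 intensity of 6 genes by weeks after the operation; blue circles are sham pools, orange triangles banded pools, and lines join the means of the time points. Col3a1 and Col1a1 are highest at 6 weeks in both kinds of heart, Egr1 lies lower in late than in early sham hearts and higher in late than in early banded hearts, and Hspb1, Tfrc and Ndufa8 show the pools discussed for each.

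Col1a1, the main chain of type I collagen, was at 12.56 and 12.83 at 6 weeks, 11.90 and 10.70 at 12 weeks, 11.95 and 11.58 at 16 weeks, and 11.45 and 11.43 at 30 weeks. Again the 2 pools at 6 weeks stood above all others, and the lowest value was 1 of the 2 pools at 12 weeks. Its difference of -0.40 ± 0.38 is about as large as its error, and without the pools at 6 weeks it was at 0.30. Its other 3 probe sets were at -0.31, -0.19 and -0.20. Of the 13 collagen genes measured, 4 (Col1a1, Col1a2, Col3a1 and Col8a1) had both pools at 6 weeks above the other 6 arrays, or 30.8%, beside 181 of all 4736 genes, or 3.82%. This grouping was made after their values were seen. Over the whole list 10 of 13 lay below 0, beside 43.9% of all genes. The median was -0.18 (-0.23 after quantile normalization) beside 0.02 for all genes. At an unadjusted p below 0.05, 2 were lower and 1 higher, beside 0.929% and 2.13% of all genes. Early and late did not overlap in 1 lower and 1 higher collagen, beside 0.781% and 1.18% of all genes. Col5a1, a chain of the type V collagen that starts fibril assembly, was at 12.10, 11.85, 11.95 and 12.07 in early pools and at 11.64, 11.78, 11.77 and 11.66 in late ones. These ranges do not overlap (difference -0.28 ± 0.0945, and -0.006 in banded hearts). Chosen after their values were seen, Col5a2 was at -0.33 ± 0.16, Col15a1, of basement membrane zones, at -0.23 ± 0.16, and Col1a2 at -0.19 ± 0.14. The gene with the opposite sign and the largest size was Col9a1, a fibril-associated collagen of cartilage, at 0.33 ± 0.11. In infarction and shunt shams 12 of 13 collagens lay below 0 (median -0.12, all genes -0.003), while in banded hearts 9 of 13 did (median -0.03, all genes 0.001). For Col1a1 the infarction and shunt sham value averages opposite moves. Its mean went from 12.65 to 12.01 in infarction shams and from 12.27 to 12.65 in shunt shams.

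**Figure D3:**
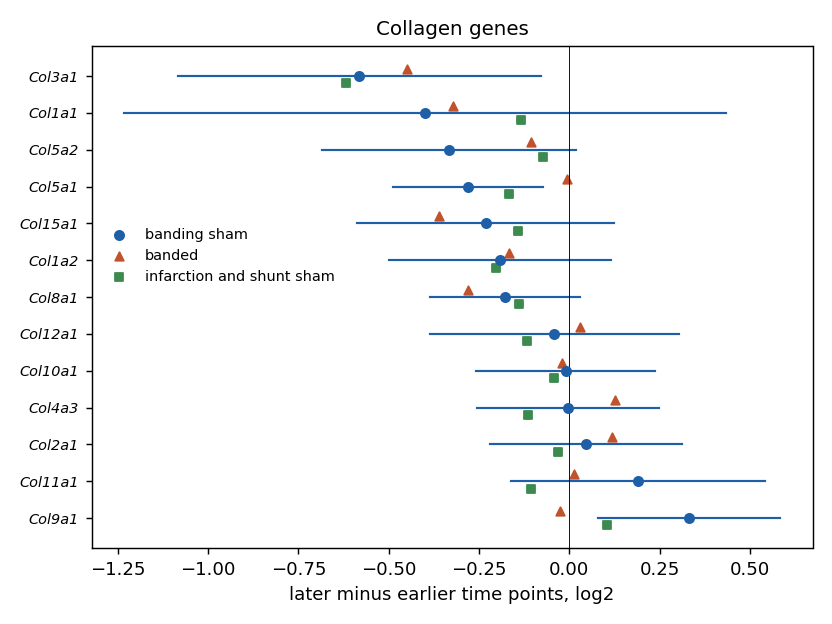
Later minus earlier difference (log2, horizontal axis) for the 13 collagen genes; blue circles with bars are banding shams with their 95% limma interval, triangles banded hearts and squares infarction and shunt shams. The intervals of Col3a1, Col5a1 and Col9a1 leave out 0 before adjustment, and Col3a1 lies below -0.4 in all 3 comparisons.

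The wider extracellular matrix list, which holds Col3a1, Col1a1 and Col5a1 but not Col9a1, had 29 of 46 genes below 0, beside 43.9% of all genes, and a median of -0.08. Spp1, the matricellular protein osteopontin, had the opposite sign. It was at 7.17, 6.86, 6.66 and 7.19 in early pools and at 7.89, 6.91, 7.98 and 7.41 in late ones, which overlap, a difference of 0.58 ± 0.22 (exact permutation p = 0.114). In banded hearts the Spp1 difference was 0.55. Plat, the tissue plasminogen activator, was at 9.97, 9.79, 9.95 and 9.76 in early pools and at 9.56, 9.72, 9.33 and 9.51 in late ones. These do not overlap (difference -0.34 ± 0.11, and 0.13 in banded hearts). Pdgfra, the platelet-derived growth factor receptor that marks cardiac fibroblasts, was at -0.35 ± 0.16 late minus early and at -0.70 ± 0.14 along the trend (limma adjusted p = 0.995). Its other 3 probe sets were at -0.02, 0.07 and 0.08 late minus early. Of the 10 measured fibroblast markers, a list that shares Col1a1, Col1a2 and Col3a1 with the collagens, 6 lay below 0, beside 43.9% of all genes, and 2 (Col3a1 and Pdgfra) were lower at an unadjusted p below 0.05, beside 0.929%. Their summed intensity was 35900 to 48700 in early and 34700 to 43100 in late pools. In RNA from whole ventricle, fewer cells of a type and less RNA per cell cannot be told apart.

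Immediate early genes, which cells switch on within minutes of a stimulus, lay mostly below 0 in sham hearts. Egr1, a zinc finger factor induced by stretch and growth signals, was at 12.43 and 12.37 at 6 weeks, 12.18 and 11.61 at 12 weeks, 11.38 and 12.00 at 16 weeks, and 10.77 and 11.85 at 30 weeks. The 6-week pools stood highest and 1 of the 30-week pools lowest, and early and late overlap. The late minus early difference was -0.65 ± 0.26 and the trend -1.02 ± 0.32 (limma adjusted p = 0.993 and 0.995). Banded hearts gave 11.64, 11.92, 11.16 and 11.48 early, and from 11.71 to 12.52 over the 6 late arrays, with 1 early value inside the late range, a difference of 0.50 ± 0.23. The difference between the 2 differences was 1.14 ± 0.34 with a 95% interval from 0.44 to 1.85. Its limma adjusted p was 0.9997, and 0 of 8740 probe sets (0%) passed for this contrast, 128 (1.46%) having an unadjusted p below 0.05. Other Egr1 probe sets read -0.27, -0.13 and -0.01 for late minus early in shams, and 0.27, -0.05 and -0.03 in banded hearts. Among these only the first had opposite signs in sham and banded hearts. The values given above are those of the brightest probe set.

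Ccn1, a matricellular protein induced with this group, was at 10.81, 10.48, 10.11 and 9.94 in early and 9.75, 10.15, 9.35 and 10.16 in late pools, which overlap (difference -0.48 ± 0.22). In banded hearts it was at 0.21, and the banded minus sham value was 0.69 with a 95% interval from 0.11 to 1.27. Along the trend 6 of the 26 immediate early genes had an unadjusted p below 0.05 and lay below 0, beside 1.84% of all genes. These were Egr1, Ccn1, Klf4 (-0.53 ± 0.19), the phosphatase gene Dusp1 (-0.55 ± 0.18), and the orphan nuclear receptor genes Nr4a1 (-0.67 ± 0.18) and Nr4a3 (-0.66 ± 0.21). Klf4, Nr4a1 and Nr4a3 encode transcription factors. All 6 had their lowest value in a pool at 30 weeks, and Klf4, Dusp1, Nr4a1 and Nr4a3 were named after their values were seen. Over the list 19 of 26 genes lay below 0 for late minus early, with a median of -0.06, and 9 of 26 in banded hearts, with a median of 0.02. Fos and Jun, members of the same list, were at -0.05 and -0.04.

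Chaperones lay mostly above 0. They fold new and damaged proteins, and many are induced by heat shock factor. It binds inverted GAA repeats in promoters. Hspb1, the small heat shock protein Hsp27, was at 13.80, 12.97, 13.51 and 13.66 in early pools and at 14.00, 14.28, 13.72 and 13.99 in late ones. The overlap comes from 1 pool at 6 weeks, and the difference was 0.51 ± 0.18 (exact permutation p = 0.0571; 0.40 after quantile normalization). Other Hspb1 probe sets were at 0.53, 0.30 and 0.14. Dnaja4, a co-chaperone of Hsp70, was at 11.98, 11.42, 11.95 and 12.15 against 12.15, 12.34, 12.20 and 12.42. The late pools lay above the early ones by 0.40 ± 0.15, and in banded hearts the difference was 0.58. A dimmer Dnaja4 probe set was at 0.20 in shams, with overlap. Dnaja1 (0.23 ± 0.0917), Hsph1 (0.22 ± 0.0952) and the testis-enriched Hsp70 gene Hspa2 (0.26 ± 0.10) also had all 4 late pools above all 4 early ones. These 3 were named after their values were seen. Hspa2 is dim, with sham means from 6.62 at 6 weeks to 6.99 at 30 weeks. In banded hearts, in order of time point, Hspa2 means were 7.10, 6.74, 6.94 and 6.88. Those of Dnaja1 were 11.35, 11.35, 11.45 and 11.53, and those of Hsph1 10.43, 10.29, 10.55 and 10.59. Of 29 chaperones measured, 5 were higher and 0 lower at an unadjusted p below 0.05, beside 2.13% and 0.929% of all genes. Early and late did not overlap in 4 higher and 0 lower chaperones, beside 1.18% and 0.781% of all genes. The list had 22 genes above 0, beside 2659 of all 4736 genes, and a median of 0.13 (0.09 after quantile normalization). The endoplasmic reticulum chaperone Hspa5 was at -0.20 and the myocyte small heat shock protein Cryab at -0.05. In banded hearts the list had a median of 0.05 and in infarction and shunt shams -0.00123.

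The 250 bases before the start sites of 4 of these 5 genes show where the letters GAANNTTC, the core of a heat shock element, occur; it reads alike on both strands and is in capitals. The sequences are from RefSeq on build GRCr8. They lie at chr12:26432302-26432551 for Hspb1 (minus strand), chr5:60638154-60638403 for Dnaja1, chr12:10427118-10427367 for Hsph1 and chr8:63981337-63981586 for Dnaja4 (all plus strand).
Hspb1: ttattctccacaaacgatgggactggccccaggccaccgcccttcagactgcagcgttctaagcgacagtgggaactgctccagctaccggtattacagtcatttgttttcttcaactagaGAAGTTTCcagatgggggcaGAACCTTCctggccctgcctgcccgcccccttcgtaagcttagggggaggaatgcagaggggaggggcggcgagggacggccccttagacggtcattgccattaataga
Dnaja1: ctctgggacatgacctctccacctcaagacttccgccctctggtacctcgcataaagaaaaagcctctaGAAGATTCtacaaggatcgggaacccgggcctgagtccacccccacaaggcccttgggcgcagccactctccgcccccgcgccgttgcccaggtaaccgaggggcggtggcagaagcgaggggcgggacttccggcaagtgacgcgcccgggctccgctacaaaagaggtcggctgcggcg
Hsph1: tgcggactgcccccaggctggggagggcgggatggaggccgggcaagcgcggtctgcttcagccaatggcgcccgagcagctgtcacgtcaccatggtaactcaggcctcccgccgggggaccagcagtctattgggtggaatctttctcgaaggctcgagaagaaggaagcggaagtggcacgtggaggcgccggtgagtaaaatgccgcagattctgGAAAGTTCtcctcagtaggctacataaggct
Dnaja4: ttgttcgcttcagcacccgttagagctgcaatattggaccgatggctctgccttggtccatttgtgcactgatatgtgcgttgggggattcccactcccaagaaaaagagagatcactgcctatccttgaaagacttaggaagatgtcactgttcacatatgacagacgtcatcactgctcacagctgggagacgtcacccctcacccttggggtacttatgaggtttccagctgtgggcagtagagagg
Hspb1 holds the letters at 2 places, Dnaja1 and Hsph1 at 1 place each, and Dnaja4 at 0. Among 24 measured chaperone genes with a promoter sequence, 9 hold them in at least 1 promoter, or 37.5%. Counted by promoter and not by gene, 2420 of 33469 promoters hold them, or 7.23%. The units differ, and a gene with several promoters has more chances of a match. A match is a description of these letters and not of a bound site.

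Genes of energy metabolism lay slightly above 0. Hadhb, the thiolase subunit of the mitochondrial trifunctional protein, was at 13.50, 13.16, 13.67 and 13.46 in early pools and at 13.68, 13.70, 13.76 and 13.77 in late ones, which do not overlap (0.28 ± 0.11). Decr1, which handles unsaturated fatty acids, was at 0.27 ± 0.12. Of 38 fatty acid oxidation genes 7 lay below 0 as deposited, beside 43.9% of all genes, with a median of 0.09. After quantile normalization 14 did, beside 2476 of all 4736 genes, with a median of 0.04. At an unadjusted p below 0.05, 2 were higher, beside 2.13% of all genes. Early and late did not overlap in 1 higher (Hadhb) and 1 lower gene of this list, beside 1.18% and 0.781% of all genes. Ndufa8, a subunit of complex I, was at 13.21, 13.18, 13.29 and 13.49 against 13.50, 13.67, 13.53 and 13.62. Early and late did not overlap, by 0.29 ± 0.0998, and banded hearts gave 0.32. The oxidative phosphorylation list had 11 of 43 genes below 0 and a median of 0.10, which were 17 genes and 0.04 after quantile normalization. Along the trend 6 of its genes lay above 0 with an unadjusted p below 0.05 and 0 below, beside 1.69% of all genes higher. They were Ndufa8, Ndufab1 (0.83 ± 0.36), Ndufb8 (0.37 ± 0.16), Ndufv2 (0.32 ± 0.14), Uqcrc2 (0.38 ± 0.14) and Cox5a (0.50 ± 0.15). All 6 had their lowest sham mean at 6 weeks. In Ndufab1, Ndufb8, Ndufv2 and Uqcrc2 most of the rise lay between 6 and 12 weeks. The Ndufab1 means were 13.77, 14.68, 14.69 and 14.80 at 6, 12, 16 and 30 weeks. The bright end of the scale differed between the 2 pools at 6 weeks, and its part in these values was not tested. Atp5if1, which restrains the ATP synthase when it runs backwards, was at 12.93, 13.15, 13.38 and 12.72 early and at 13.43, 13.45, 13.49 and 13.58 late, with no overlap (0.44 ± 0.13). The other Atp5if1 probe sets were at 0.14, 0.02 and 0.31. In banded hearts 27 of the 43 oxidative phosphorylation genes lay below 0 (median -0.03), beside 49.6% of all genes. In infarction and shunt shams 28 did (median -0.07), beside 51.2%. After quantile normalization these medians were 0.01 and 0.007. For neonatal minus adult control ventricle the fatty acid oxidation list had a median of -0.23 and the oxidative phosphorylation list one of -0.44.

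In glucose and intermediary metabolism, Sucla2, Pgam2 and Pfkfb1 had late pools wholly above early ones. Sucla2, a subunit of succinyl-CoA ligase, was at 0.31 ± 0.11, Pgam2, the muscle phosphoglycerate mutase, at 0.28 ± 0.10, and Pfkfb1, which sets fructose 2,6-bisphosphate, at 0.39 ± 0.14, although the mean of all its probe sets was at -0.01. Banded hearts gave -0.16, -0.01 and -0.03 for these 3. Me1, the malic enzyme that supplies NADPH and responds to thyroid hormone, was at 10.95, 10.30, 11.08 and 10.36 in early and 11.29, 10.98, 11.23 and 11.17 in late pools, which overlap through 1 late value (0.50 ± 0.18). Its other 4 probe sets were between 0.0950 and 0.16. Thra, the thyroid hormone receptor alpha gene, was at 11.63, 11.28, 11.67 and 11.38 against 11.07, 11.30, 11.14 and 11.18, with 1 late pool inside the early range (-0.32 ± 0.11). Its other 2 probe sets were at -0.03 and -0.06. In neonatal ventricle this Thra probe set stood 1.09 ± 0.21 above adult controls (limma adjusted p = 0.00133). The other 2 were at 0.09 and -0.28 for neonatal minus adult, so the Thra probe sets disagree.

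Of 30 myosin, actin and troponin genes 0 had an unadjusted p below 0.05, a count near the background of 2.13% of all genes higher and 0.929% lower. Myh6, the alpha myosin of the adult rat ventricle, was at 14.56, 15.48, 14.87 and 15.56 in early and 14.87, 15.08, 15.33 and 15.07 in late pools (-0.03 ± 0.21, and 0.10 after quantile normalization). For Myh7, the beta myosin, the values were 14.59, 15.60, 15.76 and 15.69 against 14.90, 15.11, 15.46 and 15.14 (-0.25 ± 0.24, and -0.04 after quantile normalization). In both genes the late values lay inside the early range. The other Myh7 probe set had the opposite sign, at 0.38 late minus early. For neonatal minus adult it was at 0.75, beside -0.57 for the one given, so the Myh7 probe sets disagree. Other Myh6 probe sets were at -0.31 and -0.22 late minus early. Nppa, the atrial natriuretic peptide gene, was at -0.06 ± 0.27 with a 30-week pool at 13.63 and the other at 12.24, and Nppb at -0.06 ± 0.19. Acta1, the skeletal alpha-actin of fetal heart, was at 13.38, 13.03, 12.83 and 12.68 early and 12.35, 12.78, 12.49 and 13.01 late (-0.32 ± 0.18). Pln, the inhibitor of the sarcoplasmic reticulum calcium pump, ran from 13.36 and 13.10 at 6 weeks to 13.75 and 13.83 at 30 weeks (0.52 ± 0.13 over the line, limma adjusted p = 0.995). Over 14 cardiomyocyte markers the median was -0.19 as deposited and -0.000186 after quantile normalization, and their summed intensity was 303000 to 585000 in early and 374000 to 519000 in late pools.

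Of the genes with the smallest p in each direction, several have known roles outside these lists. Tfrc, the transferrin receptor for iron uptake, was at 10.10, 9.33, 9.51 and 8.97 in early pools and at 8.88, 8.90, 8.77 and 8.98 in late ones. The late pools were tight and the early ones wide, and the highest late value was just above the lowest early one (difference -0.60 ± 0.20, neonatal minus adult 1.07). Nfkbia, the inhibitor of NF-kappaB, was at 10.52, 10.42, 10.01 and 10.22 against 10.84, 10.81, 10.52 and 10.93, the ranges just meeting (0.48 ± 0.13). Banded hearts gave -0.04 and other shams -0.41 for it, and its second probe set was at 0.26 in banding shams. Ggt5, a gamma-glutamyltransferase that acts on leukotriene C4, was at 10.36, 10.32, 10.13 and 10.13 against 10.68, 10.48, 10.55 and 10.80, with no overlap (0.39 ± 0.11). Cidea, a lipid droplet protein, was at 0.47 ± 0.14, the mitochondrial carrier homologue Mtch2 at 0.48 ± 0.15, and Calu, a calcium-binding protein of the secretory pathway, at 0.49 ± 0.15. Other Mtch2 probe sets were at 0.0867 and 0.19. In banded hearts Calu was at 0.28, Cidea at 0.31 and Mtch2 at 0.21.

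The remaining higher genes were Or8c18 (0.51), Pllp (0.40), LOC102553868 (0.40), Hmgb1 (0.35), Megf10 (0.34), Strn3 (0.34), LOC100912629 (0.32), Gabra4 (0.30) and Fkbp2 (0.29). Gabra4 has 2 probe sets that disagree, their mean being at -0.13. On the lower side were Tnr (-0.47), Meox2 (-0.38), Smc5 (-0.34), Gatm (-0.34), Pcdhb12 (-0.32), Pnpla3 (-0.32), Abracl (-0.29), Rnpep (-0.27), Cxcl13 (-0.26) and Chd6 (-0.25). Meox2 encodes a homeobox factor of vessels and heart endothelium, Gatm the first enzyme of creatine synthesis, and Pnpla3 a lipid droplet lipase. Gatm and Abracl stood 1.75 and 1.00 log2 higher in neonatal than in adult control ventricle, and Pnpla3 at -0.88.

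Among 39 gene lists 0 held a gene that passed, and the list medians ran from -0.19 for cardiomyocyte markers to 0.15 for the 2 measured markers of thymus or lymph tissue. Complement and inflammation had a median of 0.01 over 40 genes, and Il1a, the interleukin-1 alpha gene, was at 0.38 ± 0.13. The interferon list had a median of -0.04 over 14 genes, with Mx2 at -0.25 ± 0.11. Ribosomal proteins had a median of 0.10 over 37 genes and the proteasome list 0.08 over 23, which were 0.02 and 0.02 after quantile normalization; Rpl30 was at 0.32 ± 0.13 and Psmc3 at 0.34 ± 0.12. Cell cycle genes had a median of 0.03 over 33 genes, and 17 genes of senescence and ageing one of 0.01, with 8 below 0. Markers of macrophages (8 genes) had a median of -0.02, lymphocytes (13) 0.05, endothelium (6) -0.05, smooth muscle (7) 0.03, adipocytes (13) 0.03 and erythroid cells (5) -0.08. Their part in any result was not tested.

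**Figure D4:**
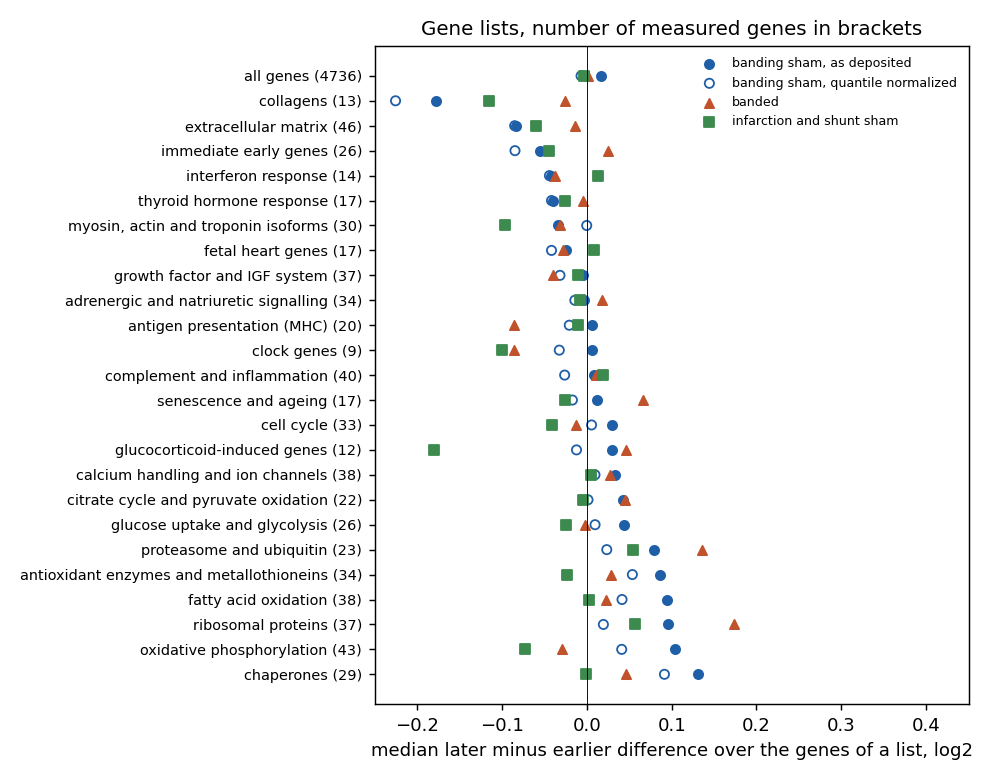
Median later minus earlier difference (log2, horizontal axis) over the measured genes of each functional list; filled circles are banding shams as deposited, open circles the same after quantile normalization, triangles banded hearts and squares infarction and shunt shams. Collagens lie furthest below 0 and chaperones furthest above it in banding shams, both before and after quantile normalization.

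Banded hearts share no array with the shams, so their own late minus early difference could be set beside that of the shams. Time point and any handling shared within it are common to both. In banded hearts 0 of 8740 probe sets passed (0%, with 373, 4.27%, at an unadjusted p below 0.05). Of the 193 probe sets higher in late shams at an unadjusted p below 0.05, 150 (77.7%) also lay above 0 in banded hearts, beside 51.8% of all probe sets. For the 117 lower ones the share below 0 was 69 (59.0%) beside 48.2%. In banded hearts 49.6% and in infarction and shunt shams 51.2% of all genes lay below 0. In the infarction and shunt shams, whose time points are earlier and closer together, 101 of the 193 (52.3%) lay above 0 beside 47.4% of all, and 49 of the 117 (41.9%) lay below 0 beside 52.7%. That comparison called 0 (0%, with 974, 11.1%, at an unadjusted p below 0.05). Against neonatal ventricle, the 193 were higher there in 57 (29.5%) beside 40.0% of all, and the 117 lower in 65 (55.6%) beside 60.0%. Both Hspb1, at 0.16 in infarction and shunt shams, and Egr1, at 0.28, were within 2 SE of 0 there. For Egr1 that value averages opposite moves. Its mean went from 12.26 to 13.52 in shunt shams and from 12.86 to 12.16 in infarction shams.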

How the data were processed

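Left ventricular RNA pools were hybridised to Affymetrix RGU34A arrays, 46 in all. The deposited values are linear intensities, which the authors computed with dChip from perfect match probes after invariant-set normalization; the file itself does not name the method. The number of arrays limits the precision. Values under 16 were set to 16 before log2 was taken. Of all probe sets 7006 had 1 gene symbol (4736 distinct), 308 several and 1426 none; a gene is given by its probe set with the highest mean over the 46 arrays. Groups came from the sample labels. limma 3.58.1 in R 4.3.3 compared the 4 late with the 4 early sham arrays, fitted a trend on the week, and tested for any difference between the 4 time points; the other comparisons were fitted likewise, with Benjamini-Hochberg adjustment over all probe sets. A p-value measures the spread between pools, not animals. Genes were named by smallest p (15 of each direction and up to 2 per list), with a fixed set of heart genes; others were chosen after their values were seen, as were Fos, Jun, Hspa5, Cryab and the trend genes of oxidative phosphorylation. The members and the 39 lists were chosen with earlier results of these data known. The fits were tested on simulated data. Alternatives were other floors, filters, normalizations, spreads, time scales, probe set means, a replicate block, and leaving out arrays and time points.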

Additional observations from a re-analysis of the deposited data

Results flagged for a closer look

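A single array stood apart from the other 3 of its side in 5 of 152 groups tested, while chance alone would mark about 1 in 20. In the early shams, 1 pool at 6 weeks (replicate 3) was low for Myh7 at 14.59, the others lying between 15.60 and 15.76, and for Actc1 at 14.76, the others lying between 15.93 and 15.98. The same pool has the lowest maximum intensity of the 8. Among late shams a pool at 16 weeks (replicate 3) was low for Ndufab1 at 14.60 (others 14.78 to 14.81) and for Ndufv2 at 14.28 (others 14.57 to 14.58). Pou3f3 was at 11.50 in the other pool at 6 weeks (replicate 4) and between 7.20 and 7.52 in the other early pools.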

How the results depend on the processing

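Late against early calls stayed at 0 under other floors, a filter on low values, quantile normalization, median centring, array weights, leaving out any time point or array, and the replicate block; the spread of 20 groups gave 1. Unadjusted counts were 469 with that spread, 486 with array weights, 598, 577 and 152 without 6, 12 and 30 weeks, 132 with the replicate block and 161 to 551 without single arrays. The trend and banded comparisons also stayed at 0. Any difference between the 4 time points called 0 to 25 without single arrays (6 and 4 without 6 weeks replicates 3 and 4, 1 and 25 without 12 weeks replicates 3 and 4). Infarction and shunt shams called 0 to 8, the 8 without shunt 8 weeks replicate 3. Neonatal calls were 3090, 1929 with the replicate block and 1636 to 3192 without single arrays, 1636 and 1881 without neonatal replicates 1 and 2. The difference between sham replicates 3 and 4 was correlated between time points. It gave 0.124 (6 and 12 weeks), -0.11 (6 and 16) and -0.173 (12 and 16), no sign that the numbers pair the pools. The pools at 30 weeks carry other numbers and were not in this check. In the sham fits the block in effect took out the pools at 30 weeks, whose numbers occur at no other banding sham time point. It is therefore not a check separate from leaving out 30 weeks. The block was not run for the infarction and shunt shams together, since only the shunt shams share numbers. The sign turned for Myh6 (0.10 quantile normalized, 0.0277 array weights, 0.0666 without 12 and 0.0817 without 16 weeks, -0.22 to 0.12 without single arrays), Nppa (0.18 without 6 weeks, -0.30 to 0.16 without single arrays), Nppb (0.0404 without 6 and 0.0728 without 16 weeks, -0.267 to 0.0549 without single arrays), Col1a1 (0.30) and Ndufb8 (-0.00761) without 6 weeks, Myh7 (0.0617 without 12 weeks), Myh7 (0.0643), Pfkfb1 (-0.00581) and Gabra4 (-0.129) averaged over probe sets, and Nr4a1 (0.0851) and Nr4a3 (0.0479) without 30 weeks and with the replicate block. The causes were not tested.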
